A study of Homo sapiens with 6 samples.

Results

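The miR-30 family was followed as its 10 listed mature arms, picked by name out of the 1000 mature miRNAs counted in HEK 293T cells. These were the 5p arms miR-30a-5p, miR-30b-5p, miR-30c-5p, miR-30d-5p and miR-30e-5p, and the 3p arms miR-30a-3p, miR-30c-1-3p, miR-30c-2-3p, miR-30d-3p and miR-30e-3p. HEK 293T is an immortalized human embryonic kidney cell line. The 3 ΔTUT4/7 libraries came from a TENT3A/B double knockout strain, which lacks TUT4 (TENT3A) and TUT7 (TENT3B), and the 3 wild type (WT) libraries came from HEK 293T cells with both genes. Neither strain received a treatment, and per the study's methods the knockout was made earlier in another laboratory, so the comparison covers 1 knockout strain. Neither deleted gene can be read from counts of mature miRNAs, which leaves the strain labels unchecked by them, and no miRNA served to check the identity of the cell line. The libraries are labelled as biological replicates with no word on separate cultures, so a p-value here measures the spread between these libraries.

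TUT4 and TUT7 are terminal uridylyltransferases, which add uridines to the 3′ ends of RNAs, including the hairpin precursors of miRNAs and mRNAs on their way to decay. Each miRNA hairpin is cut by DROSHA and DICER1 into a 5p and a 3p arm, and an arm that is loaded into an Argonaute protein finds its mRNA targets mainly through its seed, bases 2 to 8. The miR-30 family is broadly expressed and known from kidney podocytes, epithelia and muscle, and its 5p arms are known to repress SNAI1, a driver of epithelial-mesenchymal transition, and, for miR-30a, the autophagy gene BECN1. Group II miRNAs are those whose precursors need 1 added nucleotide before DICER1 can cut them well. None of the 6 miR-30 hairpins is on the study's list of group II miRNAs.

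The sequences are shown because the seed sets which arms can be added together, and because the reads were trimmed to 18 nt. The methods do not say which end of the read was kept. It is taken here to be the first 18 nt, in which case bases after position 18 could not separate arms. RefSeq (GRCh38.p14) gave a mature sequence for 7 of the 10 arms, with the seed in capitals below. The first 3 lines are 5p arms and the other 4 are 3p arms.
hsa-miR-30a-5p: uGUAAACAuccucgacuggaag
hsa-miR-30e-5p: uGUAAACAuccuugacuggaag
hsa-miR-30c-5p: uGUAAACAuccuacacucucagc
hsa-miR-30a-3p: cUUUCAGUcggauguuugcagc
hsa-miR-30e-3p: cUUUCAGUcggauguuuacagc
hsa-miR-30c-1-3p: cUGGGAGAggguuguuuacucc
hsa-miR-30c-2-3p: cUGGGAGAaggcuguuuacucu
All 5 5p arms carry the seed GUAAACA, which no other miRNA among the 1000 carries. The 3p arms of miR-30a, miR-30d and miR-30e carry UUUCAGU, and both miR-30c 3p arms carry UGGGAGA, again with no other miRNA of the 1000. Counted from 1 at the 5′ end, miR-30a-5p and miR-30e-5p differ in their first 18 nt by C13U alone, and miR-30a-3p and miR-30e-3p by G18A alone. The miR-30c 3p arms differ there by G9A and U12C from miR-30c-1-3p to miR-30c-2-3p. From miR-30a-5p to miR-30c-5p the differences are C13A, G14C and G18C, outside the seed. The names miR-30b-5p, miR-30d-5p and miR-30d-3p had no entry there.

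The hairpins that hold these arms are shown because 1 mature 5p arm, miR-30c-5p, has 2 sources. Mature arms are in capitals, and the letters are the RNA strand of RefSeq GRCh38.p14.
MIR30E, chr1:40754355-40754446, plus strand: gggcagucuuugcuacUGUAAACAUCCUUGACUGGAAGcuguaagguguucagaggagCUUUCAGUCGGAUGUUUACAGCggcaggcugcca
MIR30C1, chr1:40757284-40757372, plus strand: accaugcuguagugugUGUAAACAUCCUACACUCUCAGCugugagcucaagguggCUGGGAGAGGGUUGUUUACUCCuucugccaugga
MIR30C2, chr6:71376960-71377031, minus strand: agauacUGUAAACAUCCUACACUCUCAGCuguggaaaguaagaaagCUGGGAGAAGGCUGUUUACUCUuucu
MIR30A, chr6:71403551-71403621, minus strand: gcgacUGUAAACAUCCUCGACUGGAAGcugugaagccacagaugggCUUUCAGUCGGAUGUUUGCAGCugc
In GENCODE 44 the chromosome 1 hairpins lie 2837 bases apart in introns of NFYC, which encodes a subunit of the CCAAT-binding factor NF-Y. On chromosome 6 they lie 26519 bases apart within the lncRNA gene LINC00472, MIR30A in an intron and MIR30C2 in an exon. A count of miR-30c-5p can come from MIR30C1 or MIR30C2, while each miR-30c 3p arm comes from its own hairpin. That count may also include reads of miR-30b-5p, as described below.

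Levels are given as CPM, the count of an arm after scaling its library to a total of 1000000. The deposited totals ran from 4688610 to 5073921 in ΔTUT4/7 and from 4338558 to 7967606 in WT. CPM divides a fixed total, of which miR-98 and the let-7 arms held 19.2% to 19.7% in ΔTUT4/7 and 5.57% to 6.36% in WT. Its part in the changes below was not tested beyond a scaling by totals without let-7 and miR-98, in which the median log2 fold change, taken over the tested miRNAs, moved from 0.013 to 0.23. WT replicate 3 stood apart from the other WT libraries, its chi-square of counts divided by the degrees of freedom being 356 against replicate 1 and 340.2 against replicate 2, beside 117.9 between replicates 1 and 2. In ΔTUT4/7 the same measure ran from 16.0 to 67.0. The SD relative to the mean was larger in WT for all 10 miR-30 arms and for 59.8% of 819 tested miRNAs, with a median over the arms of 17.7% in WT and 6.72% in ΔTUT4/7. Values without WT replicate 3 are therefore given beside results for arms, sums and arm ratios.

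Abundance of the miR-30 arms was lower in ΔTUT4/7 cells for most of the family. Of the 10 arms, 7 fell at an adjusted p under 0.05 and none rose (edgeR quasi-likelihood test, Benjamini-Hochberg over 826 tested miRNAs); 6 fell without WT replicate 3 and 5 with totals without let-7 and miR-98. Over all tested miRNAs, 21.9% fell and 23.2% rose at the same limit. The arms that fell were miR-30a-5p, miR-30a-3p, miR-30b-5p, miR-30c-5p, miR-30c-2-3p, miR-30d-5p and miR-30e-3p. The values of miR-30c-1-3p, miR-30d-3p and miR-30e-5p did not pass the test. At the study's 2-fold limit 2 arms were lower, miR-30a-3p and miR-30c-5p, beside 13.6% of all tested miRNAs, and no arm was higher. In 7 arms every ΔTUT4/7 library lay below every WT library, as in 29.5% of tested miRNAs. The median log2 fold change of the 10 arms was -0.72, beside 0.013 over all tested miRNAs. All 10 arms had counts in every library, the lowest being 46 for miR-30b-5p.

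**Figure D1:**
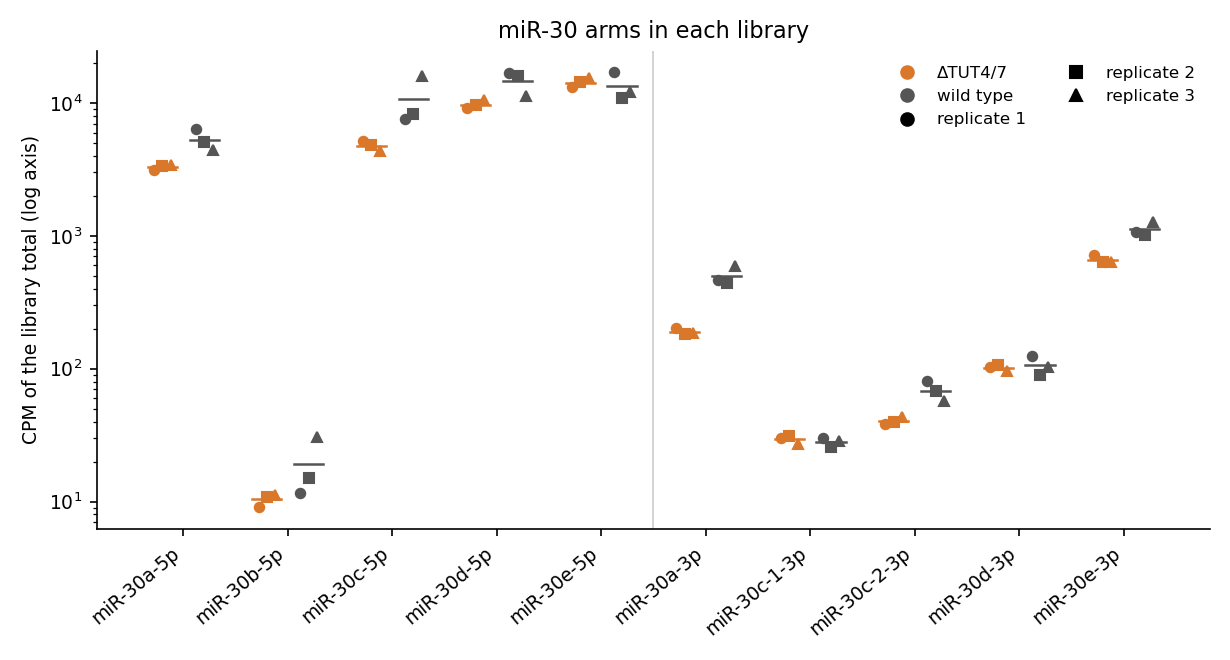
Each point is the CPM (library total scaled to 1000000, log axis) of 1 miR-30 arm in 1 library, orange for ΔTUT4/7 and grey for WT, with a line at each strain's mean (n = 3) and the replicate number as the symbol. The 5p arms other than miR-30b-5p lie above the 3p arms in all libraries, and WT replicate 3 is the highest library for miR-30c-5p at 16057 CPM and for miR-30b-5p at 30.7 CPM.

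Among the 5p arms, which carry the family's common seed, miR-30e-5p was the most abundant in the knockout and did not pass the test. It measured 13136, 14307 and 15363 CPM in ΔTUT4/7 replicates 1, 2 and 3 and 16979, 10852 and 12157 CPM in WT. The highest and the lowest values were both WT libraries, so the strains overlapped. Its log2 fold change was 0.098 (SE 0.16, 95% interval -0.24 to 0.44, edgeR adjusted p = 0.641), an interval whose ends lie inside the 2-fold limit. Without WT replicate 2 the value was -0.030, and without WT replicate 3 it was 0.036. Higher values came without WT replicate 1 (0.31, edgeR adjusted p = 0.0536) and with totals without let-7 and miR-98 (0.32, edgeR adjusted p = 0.107). With the GC trend removed it was 0.35 (edgeR adjusted p = 0.104). None of these passed the test.

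hsa-miR-30d-5p was the most abundant miR-30 arm of WT cells on average, at 14672 CPM ± 3008 (SD, n = 3). It measured 9141, 9616 and 10477 CPM in ΔTUT4/7 and 16817, 15966 and 11234 CPM in WT. WT replicate 3 was the lowest WT library and still lay above all ΔTUT4/7 libraries. The arm fell by 0.59 on the log2 scale (SE 0.15, edgeR adjusted p = 0.0068), or 1.51-fold. With totals without let-7 and miR-98 its log2 fold change was -0.37 (edgeR adjusted p = 0.0586), which did not pass the test, and without WT replicate 3 it was -0.75.

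hsa-miR-30c-5p, the arm made from 2 hairpins, had the lowest log2 fold change of the 5p arms with all 6 libraries, a place it lost without WT replicate 3. It measured 5137, 4819 and 4327 CPM in ΔTUT4/7 and 7566, 8303 and 16057 CPM in WT. WT replicate 3 held about as much as replicates 1 and 2 together, and all WT libraries lay above the ΔTUT4/7 libraries. The log2 fold change was -1.16 (SE 0.24, edgeR adjusted p = 0.00187), or 2.24-fold lower. Without WT replicate 3 it was -0.74 (edgeR adjusted p = 0.000306), past the test but not past 2-fold, beside -0.80 for miR-30a-5p and -0.75 for miR-30d-5p.

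hsa-miR-30a-5p, the arm known for BECN1 repression, measured 3154, 3373 and 3394 CPM in ΔTUT4/7 and 6369, 5115 and 4441 CPM in WT. The lowest WT library was replicate 3, and the strains did not overlap. The arm fell by 0.68 on the log2 scale (SE 0.14, edgeR adjusted p = 0.00233), 1.61-fold, and by 0.80 without WT replicate 3.

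hsa-miR-30b-5p was listed far below its relatives, at 9.07, 10.8 and 11.3 CPM in ΔTUT4/7 and 11.6, 15.1 and 30.7 CPM in WT. The strains were separated by the small step from 11.3 to 11.6 CPM, and WT replicate 3 was the highest library. Its log2 fold change was -0.87 (SE 0.33, edgeR adjusted p = 0.0495). Without WT replicate 3 it was -0.38 (edgeR adjusted p = 0.177), and the arm lost its call in 9 of 16 alternatives. Of these 16, 1 was a sum with miR-30c-5p.

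The level of miR-30b-5p rests on how shared reads were divided, since its first 18 nt are the same as those of miR-30c-5p. This holds if the trim kept the first 18 nt, which the methods do not state. The authors' expectation-maximization step divided such reads between miRNAs, and miR-30b-5p received 0.153% to 0.261% of the counts of both arms together. Summed, the 2 arms measured 4771 CPM ± 407 in ΔTUT4/7 and 10661 CPM ± 4714 in WT (SD, n = 3), a log2 ratio of means of -1.16, or -0.74 without WT replicate 3. This sum does not depend on the division. The neighbouring arm miR-30d-5p had 366 to 1455 times the count of miR-30b-5p. How much of the miR-30c-5p count was miR-30b-5p cannot be told apart in these data.

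Of the 3p arms, miR-30a-3p had the largest change in the family. It measured 203, 183 and 186 CPM in ΔTUT4/7 and 463, 442 and 591 CPM in WT. The lowest WT library was more than 2 times the highest ΔTUT4/7 library. The log2 fold change was -1.39 (SE 0.16, edgeR adjusted p = 3.42e-05), or 2.62-fold lower, and it stayed past 2-fold without WT replicate 3 at -1.25 and with totals without let-7 and miR-98 at -1.16. Its hairpin partner miR-30a-5p changed by less, as the arm ratios below describe.

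hsa-miR-30e-3p, which differs from miR-30a-3p at 1 of the first 18 bases, was the most abundant 3p arm. It measured 713, 640 and 633 CPM in ΔTUT4/7 and 1065, 1013 and 1276 CPM in WT. The strains did not overlap. It fell by 0.76 on the log2 scale (SE 0.14, edgeR adjusted p = 0.00135), 1.69-fold, and by 0.65 without WT replicate 3.

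The miR-30c 3p arms share a seed and come from different chromosomes, and 1 of them passed the test. hsa-miR-30c-2-3p measured 38.2, 39.5 and 43.3 CPM in ΔTUT4/7 and 80.5, 67.8 and 57.4 CPM in WT. It fell by 0.76 on the log2 scale (SE 0.19, edgeR adjusted p = 0.00595), with no overlap between strains, and by 0.87 without WT replicate 3. hsa-miR-30c-1-3p measured 30.0, 31.2 and 27.3 CPM in ΔTUT4/7 and 29.9, 25.6 and 28.6 CPM in WT, and the strains overlapped. Its log2 fold change was 0.076 (SE 0.19, 95% interval -0.33 to 0.48, edgeR adjusted p = 0.76), -0.079 with the GC trend removed and 0.094 without WT replicate 3. The difference between the changes of the miR-30c 3p arms was not tested.

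hsa-miR-30d-3p measured 102, 106 and 96.6 CPM in ΔTUT4/7 and 125, 89.7 and 103 CPM in WT, and the strains overlapped. WT replicates 1 and 2 were the highest and the lowest of the 6 libraries. Its log2 fold change was -0.058 (95% interval -0.44 to 0.33, edgeR adjusted p = 0.809), and its sign turned with totals without let-7 and miR-98 (0.17), without WT replicate 1 (0.079) and with the GC trend removed (0.097), while it was -0.075 without WT replicate 3. An eleventh miR-30 arm of the count table, miR-30b-3p, was outside the list of 10 and was looked at after its values were seen. It measured 15.5 CPM ± 2.09 in ΔTUT4/7 and 23.4 CPM ± 2.53 in WT (SD, n = 3), with a log2 fold change of -0.59 (edgeR adjusted p = 0.0362).

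**Figure D2:**
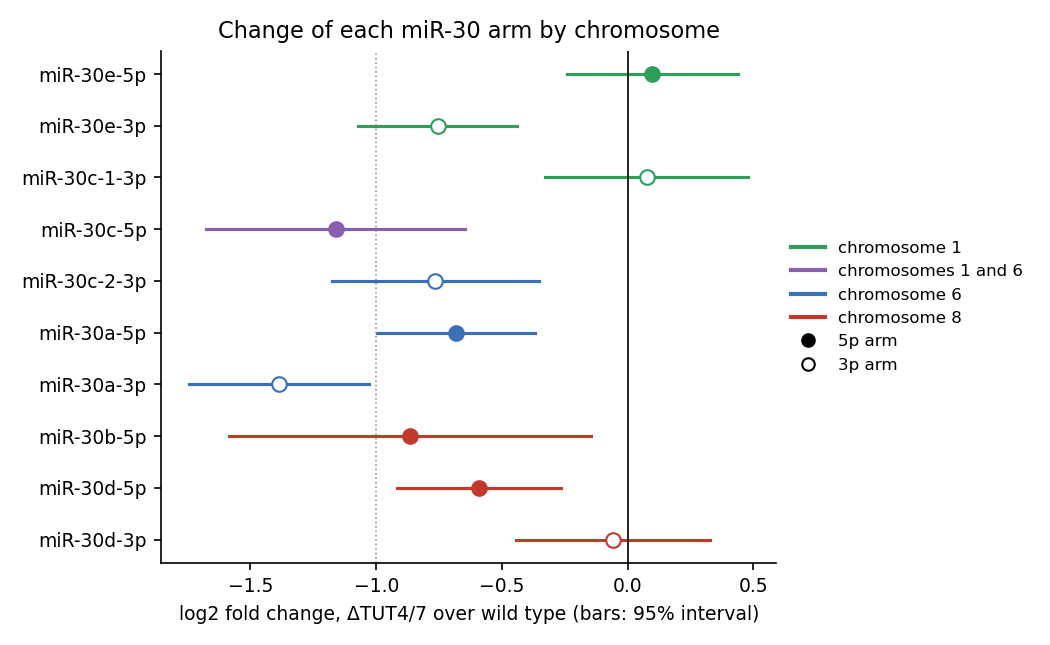
Points are the log2 fold changes of ΔTUT4/7 over WT from edgeR (filled for 5p arms, open for 3p arms, coloured by the chromosome of the hairpin), with bars for the 95% interval over 3 libraries a strain and a dotted line at a 2-fold decrease. The 3 chromosome 6 arms lie wholly below 0, as does miR-30e-3p on chromosome 1, while the intervals of miR-30e-5p, miR-30c-1-3p and miR-30d-3p span 0.

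Set out by locus, all 3 arms that come from chromosome 6 alone fell (miR-30a-5p, miR-30a-3p and miR-30c-2-3p). Of the 3 arms from chromosome 1 alone, miR-30e-3p fell while miR-30e-5p and miR-30c-1-3p did not pass the test. Of the 3 arms from chromosome 8, miR-30b-5p and miR-30d-5p fell and miR-30d-3p did not pass. These MIR30B and MIR30D hairpins lie on the minus strand at chr8:134800520-134800607 and chr8:134804876-134804945 (hg38), 4268 bases apart in introns of a lncRNA gene that GENCODE 44 lists as ENSG00000289405. The arm miR-30c-5p has 1 source on chromosome 1 and 1 on chromosome 6, and was left out of this grouping. Its count may also include reads of miR-30b-5p from chromosome 8. The arm miR-30b-5p was kept, though its count rests on the division of reads shared with miR-30c-5p. Without WT replicate 3 the call of miR-30b-5p was lost (log2 fold change -0.38, edgeR adjusted p = 0.177). With all 6 libraries and library totals, 21.9% of all tested miRNAs fell. With totals without let-7 and miR-98, neither miR-30b-5p (edgeR adjusted p = 0.124) nor miR-30d-5p (edgeR adjusted p = 0.0586) passed. The arms from chromosome 6 alone and miR-30e-3p still passed under that scaling.

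Summed by locus, the chromosome 6 arms measured 3395, 3596 and 3623 CPM in ΔTUT4/7 and 6912, 5625 and 5089 CPM in WT. The chromosome 8 arms measured 9253, 9733 and 10585 CPM in ΔTUT4/7 and 16954, 16071 and 11367 CPM in WT. Neither sum overlapped between strains, and the log2 ratios of means were -0.73 for chromosome 6 and -0.59 for chromosome 8, or -0.83 and -0.74 without WT replicate 3. The chromosome 1 arms measured 13879, 14978 and 16023 CPM in ΔTUT4/7 and 18074, 11891 and 13461 CPM in WT, which overlapped, with a log2 ratio of means of 0.048 (-0.0021 without WT replicate 3). These sums are led by 1 arm each, miR-30a-5p, miR-30d-5p and miR-30e-5p. With totals without let-7 and miR-98 the log2 ratios were -0.51 for chromosome 6, -0.36 for chromosome 8 and 0.27 for chromosome 1. The sums are given as values with no test.

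The amount of the common seed was lower in every ΔTUT4/7 library. The 5 arms with GUAAACA summed to 30577, 32126 and 33572 CPM in ΔTUT4/7 and 47742, 40251 and 43919 CPM in WT. The means were 32092 CPM ± 1498 and 43970 CPM ± 3746 (SD, n = 3), a ratio of 0.730. Its log2 value was -0.45, or -0.46 without WT replicate 3 and -0.23 with totals without let-7 and miR-98. The sum without miR-30b-5p and miR-30c-5p was 27320 CPM ± 1901 in ΔTUT4/7 and 33310 CPM ± 6281 in WT (SD, n = 3). There the strains overlapped through WT replicate 3, at 27831 CPM beside 29234 CPM in the highest ΔTUT4/7 library. WT replicates 1 and 2 measured 40164 and 31933 CPM. The log2 ratio of means was -0.29, or -0.40 without WT replicate 3 and -0.062 with totals without let-7 and miR-98.

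The sums of the 3p seeds were also lower in ΔTUT4/7. The arms with UUUCAGU summed to 954 CPM ± 55.6 in ΔTUT4/7 and 1723 CPM ± 221 in WT, a log2 ratio of means of -0.85. The arms with UGGGAGA summed to 69.8 CPM ± 1.42 in ΔTUT4/7 and 96.6 CPM ± 12.5 in WT (SD, n = 3), a log2 ratio of -0.47. Neither overlapped between strains, and without WT replicate 3 the log2 ratios were -0.74 and -0.54. With totals without let-7 and miR-98 they were -0.63 and -0.24. Within these sums miR-30d-3p and miR-30c-1-3p did not pass the test on their own. The mean of miR-30c-1-3p was 29.5 CPM in ΔTUT4/7 and 28.0 CPM in WT. All 10 arms together took 3.17%, 3.31% and 3.46% of the counts in ΔTUT4/7 and 4.95%, 4.19% and 4.60% in WT.

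**Figure D3:**
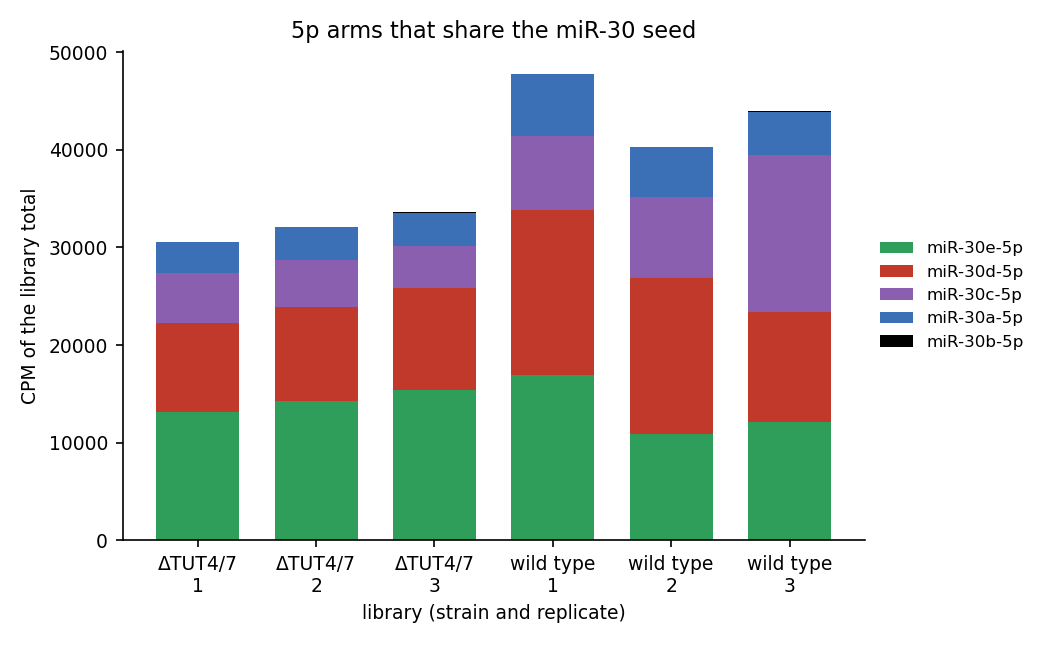
Each bar stacks the 5p arms that share the seed, in CPM, for 1 library. The ΔTUT4/7 bars reach 30577 to 33572 CPM and the WT bars 40251 to 47742 CPM, with miR-30e-5p the tallest part in all ΔTUT4/7 bars, and miR-30b-5p at most a thin line at the top.

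In the make-up of this seed pool, only the share of miR-30e-5p had no overlap between strains, and the shares were not tested. The CPM of miR-30e-5p itself overlapped between strains. That arm was 43.0%, 44.5% and 45.8% of the pool in ΔTUT4/7 and 35.6%, 27.0% and 27.7% in WT, without overlap. The shares of the other 4 arms overlapped between strains. The share of miR-30c-5p ran from 12.9% to 16.8% in ΔTUT4/7 and from 15.8% to 36.6% in WT, the last value in WT replicate 3. The share of miR-30d-5p ran from 29.9% to 31.2% in ΔTUT4/7 and from 25.6% to 39.7% in WT.

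The order of the levels was the same in all 3 ΔTUT4/7 libraries, namely miR-30e-5p, miR-30d-5p, miR-30c-5p, miR-30a-5p and miR-30b-5p from high to low. WT replicate 1 had this order too. In WT replicate 2 miR-30d-5p came first, and in WT replicate 3 miR-30c-5p came first. In WT cells the means of miR-30e-5p, miR-30d-5p and miR-30c-5p lay within 1 SD of miR-30c-5p (4704 CPM) of one another. WT replicate 3 widened that SD, at 16057 CPM beside 7566 and 8303 CPM in replicates 1 and 2. In WT replicates 1 and 2 miR-30c-5p lay below both other arms. The order of these 3 means is therefore not settled. In ΔTUT4/7 the libraries of neighbouring 5p arms did not overlap.

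The 5p arms were then compared with each other within each library, as log2 ratios that do not depend on the library total. Of 10 pairs, 3 had no overlap between strains, and all 3 held miR-30e-5p. Pairs that share an arm are not independent, and the share of separated pairs among other miRNAs was not computed. The log2 ratio of miR-30a-5p to miR-30e-5p was -2.11 ± 0.063 in ΔTUT4/7 and -1.32 ± 0.20 in WT (SD, n = 3), a difference of -0.79. For miR-30d-5p to miR-30e-5p it was -0.55 ± 0.025 in ΔTUT4/7 and 0.14 ± 0.36 in WT, a difference of -0.69. For miR-30c-5p to miR-30e-5p the difference was -1.20, from -0.38 ± 0.78 in WT to -1.58 ± 0.24 in ΔTUT4/7. Each of these had p = 0.1 in a 2-sided exact permutation test, the smallest p that 3 against 3 libraries allow, and 0.333 after Benjamini-Hochberg adjustment over the 10 pairs. The pair miR-30a-5p and miR-30d-5p, from different chromosomes, had a difference of -0.097 with overlapping strains (exact p = 0.4).

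The arms of 1 hairpin were compared by the log2 of the 5p count over the 3p count. For miR-30e it was 4.20, 4.48 and 4.60 in ΔTUT4/7 and 3.99, 3.42 and 3.25 in WT. For miR-30a it was 3.96, 4.20 and 4.19 in ΔTUT4/7 and 3.78, 3.53 and 2.91 in WT. In both hairpins all ΔTUT4/7 libraries had the higher ratio, by 0.87 (SE 0.28, limma adjusted p = 0.0923) and 0.71 (SE 0.29, limma adjusted p = 0.149). In each, the 3p arm had the lower log2 fold change, and neither difference passed after adjustment over 231 hairpins. Without WT replicate 3 the differences were 0.72 and 0.46.

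The hairpins of miR-30c-1 and miR-30d had lower ratios in ΔTUT4/7. For miR-30c-1 the log2 ratio was 7.42, 7.27 and 7.30 in ΔTUT4/7 and 7.98, 8.34 and 9.13 in WT, a difference of -1.15 (SE 0.33, limma adjusted p = 0.0742), or -0.83 without WT replicate 3. Here the 5p count is that of miR-30c-5p from both of its hairpins, and may include reads of miR-30b-5p. For miR-30d it was 6.48, 6.50 and 6.76 in ΔTUT4/7 and 7.07, 7.47 and 6.77 in WT, a difference of -0.52 (SE 0.26, limma adjusted p = 0.244), and the strains were separated by the step from 6.76 to 6.77, with a difference of -0.69 without WT replicate 3.

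The ratios of miR-30c-2 and miR-30b overlapped between strains, with differences of -0.33 and -0.16 that turned to 0.13 and 0.19 without WT replicate 3. The 3p arm of miR-30b had the higher count in all libraries but WT replicate 3, with a log2 ratio of 0.29 there and from -1.08 to -0.30 in the others. None of the 6 miR-30 hairpins passed at a limma adjusted p under 0.05, beside 12.6% of the 231 hairpins, and 3 of the 6 and 70 of the 231 passed at an unadjusted p under 0.05. Among hairpins whose arms both had a highest count above 50, miR-30c-1 (limma adjusted p = 0.0279) and miR-30e (limma adjusted p = 0.0379) passed.

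**Figure D4:**
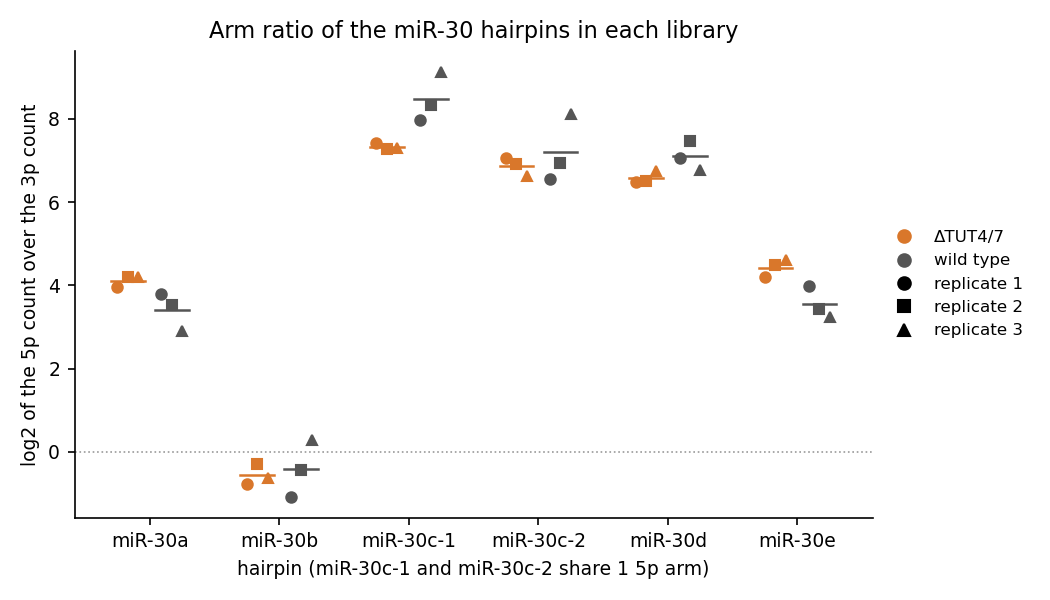
Points are the log2 ratio of the 5p count to the 3p count of each miR-30 hairpin in 1 library (orange ΔTUT4/7, grey WT, symbols for replicates), with a line at each strain's mean (n = 3) and a dotted line at equal counts. ΔTUT4/7 libraries lie above WT for miR-30a and miR-30e and below WT for miR-30c-1 and miR-30d, and miR-30b is the 1 hairpin near or below 0. The 5p count of miR-30b rests on the division of reads shared with miR-30c-5p.

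Of 183 other miRNAs with a mean above 100 CPM, the ones whose log2 CPM followed the summed 5p arms most closely over the 6 libraries were miR-130b-5p, miR-769-5p and miR-26a-5p. Their root mean square differences from the sum, each centred on its own mean, were 0.078, 0.086 and 0.10 on the log2 scale. hsa-miR-130b-5p measured 135.0 CPM ± 9.94 in ΔTUT4/7 and 179 CPM ± 6.95 in WT, and miR-769-5p measured 650.3 CPM ± 12.4 and 835 CPM ± 90.6 (SD, n = 3). hsa-miR-26a-5p, a miRNA known to repress EZH2, was near the level of the larger 5p arms, at 12116 CPM ± 248 in ΔTUT4/7 and 15730 CPM ± 835 in WT (SD, n = 3).

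With all 6 libraries and library totals, and under 16 alternatives in scaling, test, filter, library and GC content, miR-30a-5p, miR-30a-3p, miR-30c-5p, miR-30c-2-3p and miR-30e-3p stayed lower and past the test in each. Their log2 fold changes ran from -0.80 to -0.46 for miR-30a-5p, from -1.47 to -1.16 for miR-30a-3p and from -1.36 to -0.74 for miR-30c-5p. With totals without let-7 and miR-98 all 10 arms moved up by about as much as the median of all tested miRNAs.

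**Figure D5:**
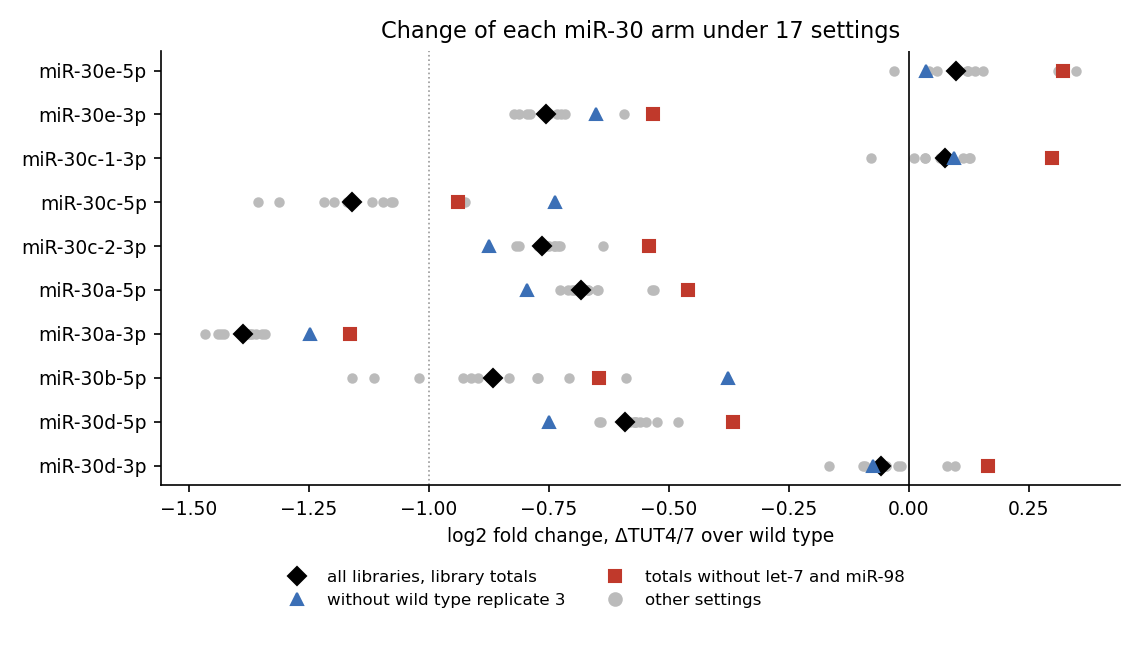
Each point is the log2 fold change of ΔTUT4/7 over WT of 1 miR-30 arm under 1 of 17 settings, with black diamonds for all 6 libraries and library totals, red squares for totals without let-7 and miR-98, blue triangles without WT replicate 3 and grey circles for the rest. Leaving out WT replicate 3 moved miR-30c-5p from -1.16 to -0.74 and miR-30b-5p from -0.87 to -0.38, and the dotted line marks a 2-fold decrease. In 1 of the grey settings miR-30b-5p and miR-30c-5p share 1 value, that of their sum.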

How the data were processed

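The authors made the libraries with the QIAseq miRNA Library Kit and sequenced them on an Illumina NextSeq. Reads were cut to 18 nt by the authors, placed on hg38 by Bowtie 1.0.0 and quantified against mature miRNAs of miRBase in Partek Flow 10.0.22. The deposited values are estimated counts from the authors' expectation-maximization step, all whole numbers. The use of molecular identifiers and the end of the read that the trim kept were not found in the methods or labels. The authors' own comparison (p-values, false discovery rates, ratios, fold changes and strain means) was not used.

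Members and lists were chosen with earlier results of these data known. The test, for miRNAs whose highest count exceeded 7, was the quasi-likelihood test of edgeR 4.0.16 (estimateDisp, glmQLFit, glmQLFTest, strain as the only term) in R 4.3.3, with column totals as library sizes, factors of 1 and Benjamini-Hochberg adjustment. The SE of each arm was computed from this test, as the size of its log2 fold change over the square root of its F statistic. The 95% interval is that SE times a t quantile on either side. Log2 5p to 3p ratios (0.5 counts added to each arm) were tested with limma 3.58.1. The fits were first tested on simulated data. CPM, sums and exact permutation tests were computed in Python 3.11.15 with numpy 2.4.6, pandas 2.3.3 and scipy 1.17.1, and plots with matplotlib 3.10.9. Named miRNAs are the 10 arms and the 3 miRNAs above 100 CPM nearest in root mean square difference to the 5p sum. RefSeq mature sequences were found for 897 of 1000 miRNAs, and all matched hg38. Alternatives were DESeq2 1.42.0, TMM or RLE factors, totals less the let-7 and miR-98 counts, limma-trend on log2(CPM + 1), no filter, filterByExpr, a replicate block, each library left out, sums over shared first 18 nt, a lowess GC correction (span 0.5), and, for the ratios, 1 count added or a highest count above 50. Leaving out libraries for the pairs of 5p arms was added after the data were seen. The fit takes each library's strain from its label.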

Additional observations from a re-analysis of the deposited data

How the results depend on the processing

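Of the arms, 2 were lower by at least 2-fold, and 1 was after removal of the GC trend (miR-30c-5p at -0.92) or with totals less the let-7 and miR-98 counts (-0.94). Over the libraries left out this count ran from 1 to 3, with 1 without WT replicate 3 and 3 without WT replicate 1, where miR-30b-5p was -1.11. With totals without let-7 and miR-98 the 5p seed sum moved to -0.23, and 183 miRNAs were higher and 81 lower at 2-fold (69.3% higher, beside 54.8% with library totals). Over the libraries left out, the 5p seed sum ran from -0.51 to -0.39. Signs turned for values that had not passed. With the GC trend removed, miR-30c-1-3p was -0.079 and miR-30d-3p 0.097, and miR-30d-3p was 0.17 with totals without let-7 and miR-98. Over the libraries left out, miR-30d-3p ran from -0.17 to 0.079 and miR-30e-5p from -0.030 to 0.31, and the arm ratio differences ran from -0.49 to 0.19 for miR-30b and from -0.65 to 0.13 for miR-30c-2. The miR-30 hairpins passing in arm ratio went from 0 to 2 with a highest count above 50, where fewer hairpins were tested. Their differences did not change, and the share of all hairpins passing there is not given. Other causes were not tested. miR-30b-5p lost its call in 9 of 16 alternatives, and miR-30d-5p in 1. Of the 16, 1 summed miR-30b-5p with miR-30c-5p over shared first 18 nt (log2 fold change -1.16, edgeR adjusted p = 0.00189). In the others miR-30b-5p ran from -1.11 to -0.38 (adjusted p 0.0147 to 0.177 over edgeR, limma and DESeq2). With the replicate block in edgeR, 131 miRNAs were higher and 102 lower at 2-fold, 7 arms passed as lower, and no miR-30 call changed. No sign that the replicate numbers pair the libraries was seen, as same-numbered deviations correlated at -0.095, -0.026 and -0.20 over 488 miRNAs. Differently numbered libraries correlated at -0.12 to 0.15, and 3 libraries a strain cannot settle whether the numbers pair them.

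The counts of miR-30b-5p, from 46 to 133, were the lowest of the 10 arms, and each strain has 3 libraries. The fits, with all libraries or with 1 left out, assume equal spread in both strains. The SD relative to the mean was larger in WT for all 10 arms.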
